A study of Mus musculus with 17 samples.

Results

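The genes described here encode the constitutive proteasome, the barrel-shaped protease that degrades ubiquitin-tagged proteins, together with its activators and the chaperones that build its cap. They were taken by name: every probe set (the group of probes that reports a transcript) carrying exactly 1 gene symbol made of Psma, Psmb, Psmc, Psmd or Psme and a number, without Psmb8, Psmb9 and Psmb10, which encode the interferon-inducible immunoproteasome subunits. This gave 48 probe sets for 42 of the 19751 genes in the table. All 42 matched a RefSeq mouse gene by gene ID. The letters also caught Psmc3ip and Psme3ip1, partner proteins that are not part of the particle, so the counts below run over the other 40 genes. These were 16 subunits of the 20S core, 17 subunits of the 19S cap, 3 cap assembly chaperones (Psmd5, Psmd9 and Psmd10) and 4 activators (Psme1, Psme2, Psme3 and Psme4).

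RNA came from plasmacytoid dendritic cells (pDC) of C57BL/6 mouse bone marrow, enriched by magnetic negative selection and then sorted as CD11c-intermediate, B220-positive, Siglec-H-positive cells. The 17 single-channel Affymetrix arrays formed 6 culture groups: CpG-A + LIF, CpG-A, CpG-B + LIF, CpG-B and LIF with 3 arrays each, and medium with 2 arrays (replicates 1 and 3). LIF is leukaemia inhibitory factor, a cytokine of the interleukin-6 family whose receptor contains gp130. It was present for 20 to 24 h at 10 ng/ml, and in the combined cultures it went in 1 h ahead of CpG. The CpGs are synthetic DNA oligonucleotides sensed by TLR9. Each was used at 6 µg/ml for 19 to 23 h, and the series' own design text gives a slightly wider window. The medium cultures received neither agent. No genotype beyond the strain is named. Nor do the labels tie replicates to separate mice or cultures, so the p-values measure only the spread between these arrays, which may be technical.

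The proteasome is a stack of rings. A pair of outer alpha rings gates the entrance, and a pair of inner beta rings holds the cutting sites. The 19S cap sits on either end. Its base carries a ring of ATPases that unfolds the substrate and pushes it in, and its lid removes the ubiquitin chain. Activators of the Psme family can take the place of the cap and open the gate without ubiquitin. In dendritic cells the peptides that the proteasome makes feed MHC class I presentation, and in mammalian cells the transcription factor Nfe2l1 is known to raise most subunit genes together when proteasome activity falls short. CpG-A is known for driving type I interferon from pDC, and CpG-B for driving their maturation.

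The deposited intensities have lost their decimal marks, so adding any whole number of steps of log2(10), or 3.32, to a log2 value gives an equally possible one. Each difference is therefore given as its nearest reading, between -1.66 and 1.66 on the log2 scale. A true change over 3.16-fold would therefore appear smaller than it is and could appear reversed, and one near 10-fold would leave no trace. A gene was called at a limma adjusted p under 0.05, with Benjamini-Hochberg adjustment over all 19751 genes, and its direction was read only where the reading was at most 1.11 in size (2.15-fold). At that size the other possible reading is a change of at least 4.64-fold the opposite way. Where a called reading was larger, the direction was not settled and both readings are given. Array values are nearest readings against the mean of the medium arrays, so the 2 medium values always mirror each other around 0. Levels cannot be recovered, so genes are not ranked by abundance and the presence of pDC markers could not be checked.

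Promoter sequence was compared for the 33 of the 40 genes that have an entry in the RefSeq table (GRCm38.p6), from 250 bases before to 50 bases after the start, with matches on both strands counted. The core of the antioxidant response element, TGACNNNGC, the element that Nfe2l1 is known to bind, was present in 6 of 33 promoters (18.2%), against 14% of all 27025 genes in that table. These were Psmb5, Psmb6, Psmc6, Psmd12, Psmd9 and Psme4. The CCAAT box, spelled CCAAT, was present in 13 of 33 (39.4%), against 41.1% of all genes. The interferon response element core, GAAANNGAAA, was present in 4 of 33 (12.1%), against 3.99% of all genes, in Psmb3, Psmd4, Psmd9 and Psme1. A match is a run of letters and does not show that a factor binds there. The 250 bases before the start are shown for 3 genes of different classes that the results return to: a cap gene with one of the largest nearest readings, a catalytic core gene with the antioxidant core, and a ubiquitin receptor gene with the interferon core. Capitals mark the matches. Psmd1 lies on the plus strand (chr1:86064369-86064618) and holds no match. Psmb5 lies on the minus strand (chr14:54617996-54618245) and holds TGACGTCGC, first base 47 bases before the start. Psmd4 lies on the minus strand (chr3:95042615-95042864) and holds a reversed CCAAT box 95 bases and a reversed interferon core 80 bases before the start.
Psmd1: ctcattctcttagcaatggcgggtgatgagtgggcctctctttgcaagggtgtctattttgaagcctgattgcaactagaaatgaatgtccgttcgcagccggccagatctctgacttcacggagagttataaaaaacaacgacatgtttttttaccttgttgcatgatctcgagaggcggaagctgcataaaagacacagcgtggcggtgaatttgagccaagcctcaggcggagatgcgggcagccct
Psmb5: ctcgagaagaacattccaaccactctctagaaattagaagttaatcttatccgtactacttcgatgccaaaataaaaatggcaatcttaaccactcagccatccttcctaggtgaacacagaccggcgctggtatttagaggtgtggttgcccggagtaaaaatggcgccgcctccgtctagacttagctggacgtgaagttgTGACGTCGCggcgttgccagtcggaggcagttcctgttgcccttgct
Psmd4: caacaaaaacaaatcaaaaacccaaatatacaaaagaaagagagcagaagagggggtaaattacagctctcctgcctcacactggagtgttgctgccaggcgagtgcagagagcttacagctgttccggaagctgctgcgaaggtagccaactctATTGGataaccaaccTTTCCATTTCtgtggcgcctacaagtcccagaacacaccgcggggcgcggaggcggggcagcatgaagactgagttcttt

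Subunits of the core and of the cap read higher together in both CpG conditions. With CpG-A against medium (n = 3 and 2), 29 of 40 genes passed the test: 26 higher, 3 with the direction not settled (Psmc6, Psmd1 and Psmd11) and none lower. Of all genes tested, 16.7% were called: 4.91% higher, 7.15% lower and 4.64% not settled. The median reading of the 40 genes was 0.62, beside -0.02 over all genes. In CpG-B vs medium (n = 3 and 2), 33 of 40 were called: 27 higher, 6 not settled and none lower, where 19.2% of all genes were called (6.94% higher, 7% lower and 5.27% not settled). The median reading was 0.73, beside -0.05 over all genes. These medians use nearest readings. With every unsettled reading turned to its other reading, they were 0.59 in CpG-A vs medium and 0.66 in CpG-B vs medium. The comparisons share the medium arrays. The count for CpG-A vs medium rested partly on 1 array: without medium replicate 3, leaving 1 medium array, it was 18, and without medium replicate 1 it was 22. Without medium replicate 3 the count for CpG-B vs medium was 24. In these bulk samples, a change in the cells that make a transcript and a change in RNA per cell cannot be told apart.

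The arrays separated by CpG and not by LIF. The median over the 40 genes was 0.50, 0.63 and 0.53 in the CpG-A + LIF arrays, 0.51, 0.68 and 0.73 in the CpG-A arrays, 0.76, 0.78 and 0.71 in the CpG-B + LIF arrays and 0.69, 0.76 and 0.73 in the CpG-B arrays, against -0.11, 0.13 and -0.01 in the LIF arrays and 0.03 and -0.03 in the medium arrays. The 12 CpG arrays lay above the 5 arrays without CpG with no overlap. Over all genes, every array's median lay between -0.06 and 0.00. For single genes, every CpG-A array lay above both medium arrays for 34 of 40 genes, where 18.4% of all genes did so. Every CpG-B array did for 37 of 40, where 19.6% of all genes did so. For 0 of the 40 did every array of either CpG group lie below both medium arrays, which 22.7% of all genes did with CpG-A and 25.8% with CpG-B. These counts and shares rest on nearest readings. Counted as above were also the genes whose direction was not settled, 3 with CpG-A and 6 with CpG-B.

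**Figure D1:**
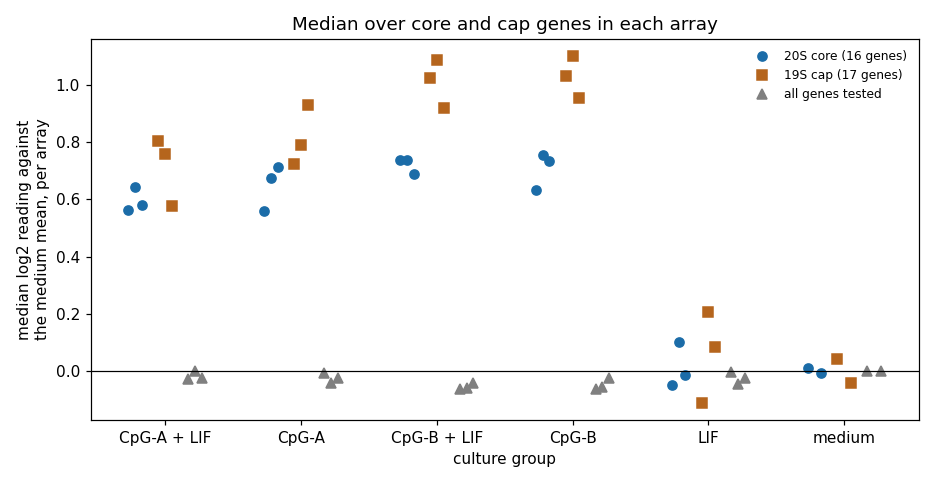
Median nearest log2 reading against the medium mean in each of the 17 arrays (vertical axis), by culture group (horizontal axis), for the 20S core (16 genes), the 19S cap (17 genes) and all 19751 genes. The medians of both proteasome classes lie above 0 in the CpG arrays and near 0 in the LIF and medium arrays, while the median of all genes is near 0 everywhere.

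The alpha ring of the core gave the same count with each CpG. In CpG-A vs medium 7 of its 8 genes read higher, with a class median of 0.60, and in CpG-B vs medium the same number did, with a median of 0.74. The first count rested partly on 1 array: without medium replicate 3 it was 4, since Psma2, Psma3 (0.74) and Psma7 lost their calls. Those of Psma2 and Psma7 were also lost without medium replicate 1, and that of Psma7 without CpG-A replicate 3 (readings of at most 0.57 in these cases). In CpG-B vs medium, Psma3 (0.70) and Psma7 (0.49) lost theirs without medium replicate 3. Psma5, the alpha subunit with the widest range of group means, was at 0.95, 1.05 and 0.93 in the CpG-A arrays and 0.97, 0.76 and 0.97 in the CpG-B arrays, against 0.03 and -0.03 in medium. All 6 CpG arrays lay well above the medium arrays and the CpG groups overlapped each other. Its reading was 0.98 ± 0.13 (SE) in CpG-A vs medium (limma adjusted p = 3.09e-05) and 0.90 ± 0.13 in CpG-B vs medium (limma adjusted p = 5.46e-05). Psma8, the alpha subunit of the testis particle, had the narrowest range and was called in neither comparison, with readings of 0.13 ± 0.21 and 0.24 ± 0.21. Its CpG-A arrays, at 0.18, -0.26 and 0.47, overlapped the medium arrays at -0.03 and 0.03.

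In the beta ring, 6 of 8 genes read higher in CpG-A vs medium (median 0.66) and 7 of 8 in CpG-B vs medium (median 0.68). Psmb7, which carries the trypsin-like site, was at 0.81, 0.80 and 0.87 in CpG-A arrays and 0.87, 0.94 and 1.23 in CpG-B arrays, against -0.16 and 0.16 in medium. It had the widest range of group means in the ring, with readings of 0.83 ± 0.14 in CpG-A vs medium (limma adjusted p = 0.000427) and 1.01 ± 0.14 in CpG-B vs medium (limma adjusted p = 5.37e-05). Psmb5, which carries the chymotrypsin-like site and whose promoter is printed above, was at 0.32, 0.51 and 0.44 in CpG-A arrays and 0.39, 0.72 and 0.73 in CpG-B arrays, against -0.06 and 0.06 in medium. Every CpG array lay above both medium arrays, but its reading missed the test in CpG-A vs medium (0.42 ± 0.16, limma adjusted p = 0.0897) and passed it in CpG-B vs medium (0.61 ± 0.16, limma adjusted p = 0.0105). The difference between the CpGs was itself not called. Psmb6, the caspase-like site, read 0.60 ± 0.17 and 0.59 ± 0.17 higher, and Psmb3, a structural beta subunit, 0.70 ± 0.16 and 0.89 ± 0.16. Some of these calls rested on single arrays. Without medium replicate 1, Psmb5 read 0.56 in CpG-B vs medium and Psmb3 0.60 in CpG-A vs medium, and neither was called. The calls of Psmb6 were lost without either medium replicate, without CpG-A replicate 2 or 3 (readings between 0.52 and 0.63 in CpG-A vs medium) and without CpG-B replicate 2 (between 0.47 and 0.62 in CpG-B vs medium). Psmb11, the catalytic subunit of cortical thymic epithelium, was at 0.04, -0.04 and -0.11 in CpG-A arrays and 0.01, -0.08 and -0.30 in CpG-B arrays, against 0.01 and -0.01 in medium. It was the beta gene with the narrowest range and was called in no comparison.

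Of the 17 genes of the cap, 14 passed the test in CpG-A vs medium (11 higher, 3 not settled, median 0.71), and in CpG-B vs medium 16 of 17 (10 higher, 6 not settled, median 1.03). Without medium replicate 3 the count for CpG-A vs medium was 8. The core gave 13 of 16 (median 0.64) and 14 of 16 (median 0.71), all of them higher. The order of the cap and core medians depends on the readings whose direction was not settled. With these turned to their other readings, the cap median was 0.63 in CpG-A vs medium and 0.60 in CpG-B vs medium, below that of the core. Neither order was tested.

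Among the 6 ATPases of the base, Psmc6 had the widest range of group means. Its arrays were at 1.06, 1.27 and 1.19 with CpG-A and 1.47, 1.48 and 1.51 with CpG-B, against 0.16 and -0.16 in medium. The CpG groups did not overlap medium or each other. Its reading was 1.17 ± 0.13 (or -2.15) in CpG-A vs medium and 1.49 ± 0.13 (or -1.83) in CpG-B vs medium, so its direction was not settled in either. Psmc2 read 1.01 ± 0.16 in CpG-A vs medium, which is 2.02-fold higher (limma adjusted p = 0.000183), and 1.14 ± 0.16 (or -2.18) in CpG-B vs medium. Psmc1 read 0.66 ± 0.16 and 1.03 ± 0.16 higher, the second being 2.04-fold. Psmc4 and Psmc5 were called higher in both comparisons too, with Psmc5 lowest at 0.45 ± 0.15 (limma adjusted p = 0.0406) in CpG-A vs medium. Psmc3, the ATPase with the narrowest range, was not called in CpG-A vs medium (0.35 ± 0.15, limma adjusted p = 0.125) and was called in CpG-B vs medium (0.49 ± 0.15, limma adjusted p = 0.023). Without medium replicate 3, calls were lost in CpG-A vs medium for Psmc1 (0.62), Psmc4 and Psmc5, and in CpG-B vs medium for Psmc4 (0.61), Psmc5 (0.55) and Psmc3. Those of Psmc4 in CpG-A vs medium were also lost without CpG-A replicate 2 or 3 (readings between 0.48 and 0.58), those of Psmc5 without CpG-A replicate 2 or 3, CpG-B + LIF replicate 1 or medium replicate 1 (between 0.33 and 0.50), and those of Psmc3 in CpG-B vs medium without CpG-B replicate 2 or 3 or medium replicate 1 (between 0.39 and 0.55).

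The large scaffold subunits of the base, Psmd1 and Psmd2, were called in both comparisons, Psmd1 with its direction not settled. Psmd1 arrays were at 1.22, 1.12 and 1.41 with CpG-A and 1.50, 1.47 and 1.43 with CpG-B, against 0.05 and -0.05 in medium. On nearest readings, the CpG-B arrays all lay above the CpG-A arrays, and both groups lay far above medium. Its readings were 1.25 ± 0.12 (or -2.08) and 1.47 ± 0.12 (or -1.85). Psmd2, a docking site for ubiquitin-carrying shuttle proteins, read 0.88 ± 0.14 in CpG-A vs medium (limma adjusted p = 0.000204) and 1.07 ± 0.14 in CpG-B vs medium (limma adjusted p = 2.98e-05), or 1.84-fold and 2.09-fold higher. Psmd4, the ubiquitin receptor whose promoter holds the interferon core, had the narrowest range of these 3 genes. It was at 0.41, 0.52 and 0.93 in CpG-A arrays and 0.70, 0.89 and 0.41 in CpG-B arrays, against 0.21 and -0.21 in medium, with readings of 0.62 ± 0.18 and 0.67 ± 0.18 and adjusted p-values of 0.0243 and 0.0142 by limma. Its calls were lost without medium replicate 3, without CpG-A replicate 3 (readings between 0.41 and 0.47 in CpG-A vs medium) and without CpG-B replicate 2 (between 0.46 and 0.56 in CpG-B vs medium).

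In the lid, 6 of 8 genes passed the test in CpG-A vs medium and 7 of 8 in CpG-B vs medium. Psmd11, which clamps the cap to the core, was at 1.32, 1.52 and 1.26 in CpG-A arrays and 1.40, 1.32 and 1.53 in CpG-B arrays, against -0.10 and 0.10 in medium. Both readings were over the limit, at 1.36 ± 0.14 (or -1.96) and 1.42 ± 0.14 (or -1.91). Psmd14, the deubiquitinase of the lid, was at 0.89, 0.84 and 1.02 with CpG-A and 1.15, 1.11 and 1.20 with CpG-B, against -0.01 and 0.01 in medium. It read 0.92 ± 0.13 higher in CpG-A vs medium (limma adjusted p = 4.39e-05) and 1.15 ± 0.13 (or -2.17) in CpG-B vs medium. Psmd12 read 0.96 ± 0.15 and 1.05 ± 0.15 higher, and Psmd7, the catalytically inactive partner of Psmd14, 0.69 ± 0.18 and 0.86 ± 0.18. Without medium replicate 3, Psmd7 read 0.60 in CpG-A vs medium and was not called. Without the same array Psmd13, another lid subunit, lost its call in CpG-A vs medium (0.53, limma adjusted p = 0.203) and in CpG-B vs medium (0.58, limma adjusted p = 0.14).

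Psmd3, the lid gene with the widest range of group means, had the least stable baseline, with medium arrays at -0.38 and 0.38. Its CpG-A arrays were at 0.86, 0.96 and 1.11 and its CpG-B arrays at 1.23, 1.58 and 1.27, above both medium arrays on nearest readings. The reading was 0.98 ± 0.20 in CpG-A vs medium (limma adjusted p = 0.00171) and 1.36 ± 0.20 (or -1.96) in CpG-B vs medium. Without medium replicate 3, the nearest reading in CpG-B vs medium turned to -1.58, just across the point where the readings fold over. Without medium replicate 1, it was 0.98, and the reading in CpG-A vs medium was 0.60 and no longer called. Psmd8, which completes the lid during assembly, had the narrowest range, with readings of 0.23 ± 0.15 and 0.30 ± 0.15, and was called in no comparison. Psmd6 differed between the CpGs and is described with that comparison.

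**Figure D2:**
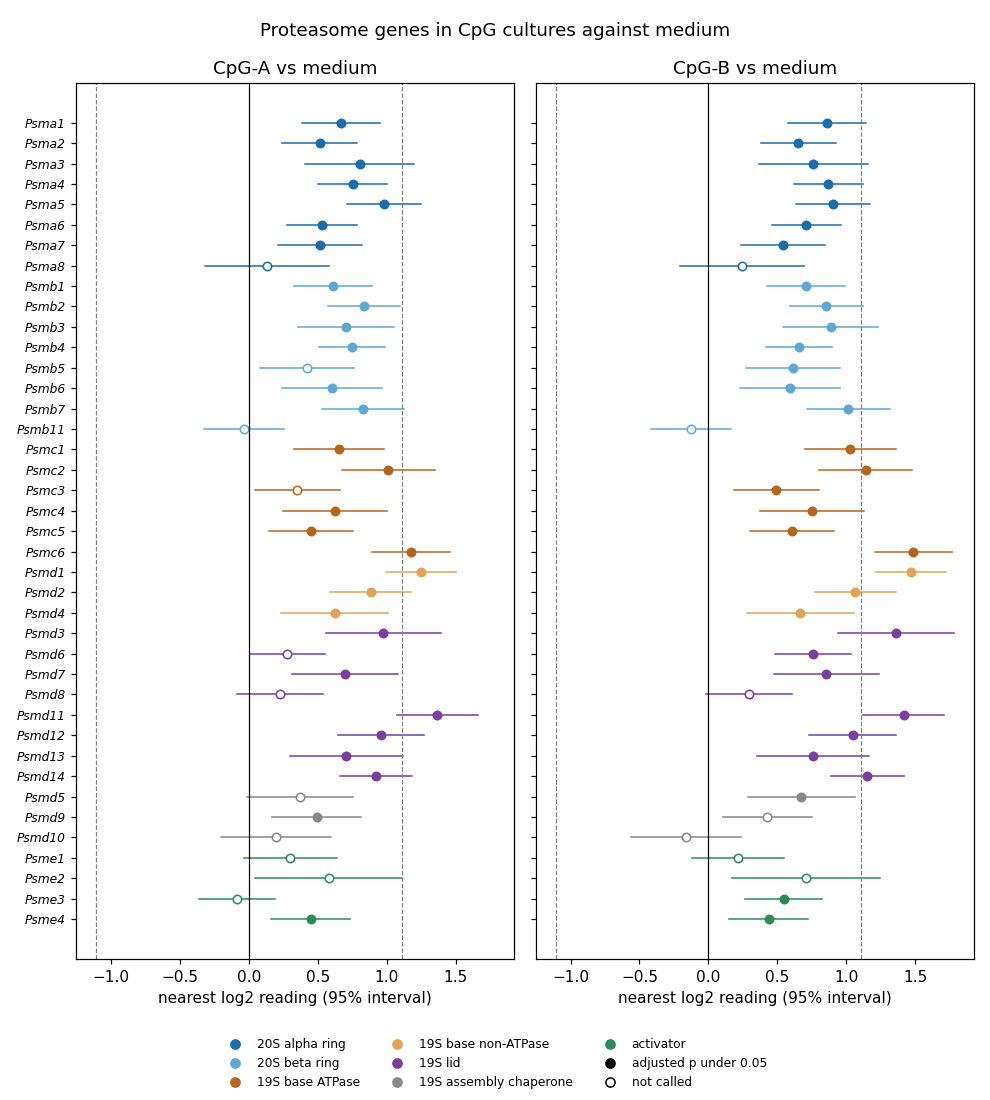
Nearest log2 reading of each of the 40 genes with its 95% interval, in CpG-A vs medium (left) and CpG-B vs medium (right), grouped by place in the particle. Filled points were called, open points were not, and the dashed lines mark the limit of 1.11 within which a direction was read. Core genes cluster between about 0.5 and 1, several cap genes pass the limit, and the activators and chaperones lie lower.

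Of the 3 chaperones that assemble the base, 1 was called with each CpG. Of all genes, 16.7% were called with CpG-A and 19.2% with CpG-B, so for 3 genes a count of 1 lies near that share. With CpG-A, Psmd9 was called (0.49 ± 0.15, limma adjusted p = 0.0344), and with CpG-B, Psmd5 (0.67 ± 0.18, limma adjusted p = 0.0133). Psmd9, whose promoter holds both the antioxidant and the interferon core, was at 0.61, 0.34 and 0.52 in CpG-A arrays and 0.27, 0.43 and 0.58 in CpG-B arrays, against -0.08 and 0.08 in medium. Psmd5 had medium arrays at -0.34 and 0.34 and CpG-B arrays at 0.56, 0.70 and 0.76. Its call was lost without medium replicate 1 (0.33), and that of Psmd9 without either medium replicate or without CpG-A replicate 1 or 3 (readings between 0.41 and 0.57). Without CpG-B replicate 1 or CpG-A + LIF replicate 2, the count for CpG-B vs medium was 2 of the 3 chaperones. Psmd10 (gankyrin) read 0.20 ± 0.19 in CpG-A vs medium and -0.16 ± 0.19 in CpG-B vs medium and was called in no comparison, with arrays on both sides of medium.

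Of the 4 activators, 1 was called with CpG-A (Psme4) and 2 with CpG-B (Psme3 and Psme4), all higher. Of all genes, 16.7% were called with CpG-A and 19.2% with CpG-B. With only 4 genes, a count of 1 lies near that share. Psme1 and Psme2 form the activator that interferon is known to induce. Psme1 was at 0.18, 0.24 and 0.48 in CpG-A arrays and 0.07, 0.43 and 0.14 in CpG-B arrays, against 0.04 and -0.04 in medium. Neither reading was called (0.30 ± 0.16 and 0.21 ± 0.16). Psme2 was at 0.27, 0.55 and 0.92 in CpG-A arrays and 0.45, 1.14 and 0.53 in CpG-B arrays, against 0.09 and -0.09 in medium. Every CpG array lay above medium, but the spread within groups was wide and neither reading was called (0.58 ± 0.25, limma adjusted p = 0.147, and 0.71 ± 0.25, limma adjusted p = 0.0601).

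Psme4, a large nuclear activator, had the narrowest range of group means of the 4. It was at 0.47, 0.58 and 0.31 in CpG-A arrays and 0.51, 0.33 and 0.48 in CpG-B arrays, against 0.20 and -0.20 in medium. It was called higher in both, at 0.45 ± 0.14 (limma adjusted p = 0.0284) and 0.44 ± 0.14 (limma adjusted p = 0.0287). Without medium replicate 3 neither call held (0.25 and 0.24). The calls were also lost without CpG-A replicate 1 or 2 (readings of at most 0.44 in CpG-A vs medium) and without CpG-B replicate 1 or 3 (at most 0.42 in CpG-B vs medium). Psme3, the nuclear activator of the same family as Psme1, had its CpG-A and CpG-B arrays at separate levels. Its arrays were at -0.14, 0.01 and -0.13 with CpG-A, around the medium value of 0.00, and at 0.67, 0.51 and 0.45 with CpG-B. It was not called in CpG-A vs medium (-0.09 ± 0.13, limma adjusted p = 0.761) and was called in CpG-B vs medium (0.54 ± 0.13, limma adjusted p = 0.00595).

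**Figure D3:**
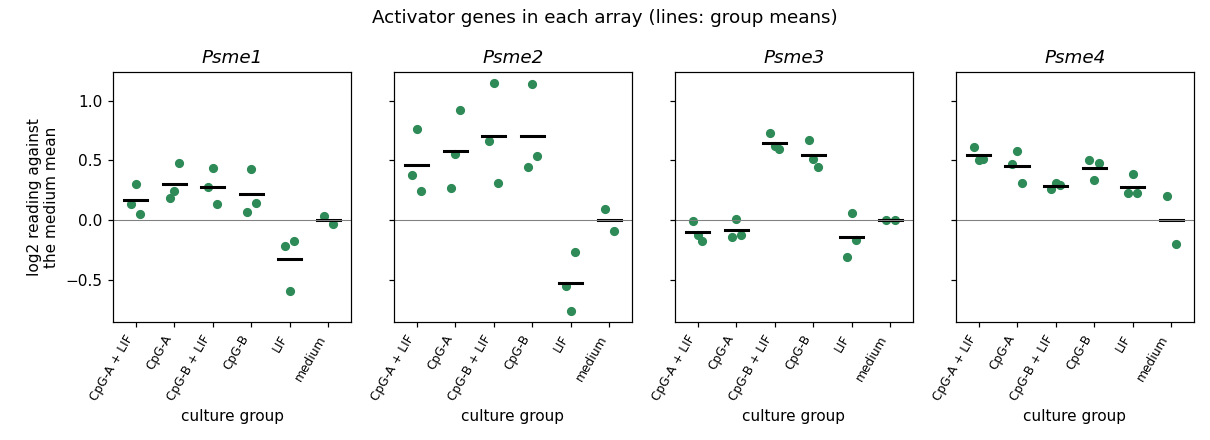
Nearest log2 reading against the medium mean of the 4 activator genes in each array, by culture group. Psme3 lies between -0.18 and 0.01 in the 6 arrays with CpG-A and between 0.45 and 0.73 in the 6 arrays with CpG-B, while Psme1 and Psme2 are lowest in the LIF arrays.

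Set against each other (n = 3 each), the CpGs gave few called differences in these genes. In CpG-A vs CpG-B, 2 of 40 were called, both lower with CpG-A, where 13% of all genes were called and 6.14% were called lower. The median reading was -0.13, beside 0.04 over all genes. All 17 cap genes read below 0 (median -0.15), as did 11 of 16 core genes (median -0.11) and 8548 of all 19751 genes. This shared direction was not tested. Psme3 read -0.63 ± 0.12 (limma adjusted p = 0.00118). Psmd6, a scaffold subunit of the lid, was at 0.13, 0.36 and 0.35 in CpG-A arrays against 0.85, 0.71 and 0.71 in CpG-B arrays, with no overlap, and read -0.48 ± 0.12 (limma adjusted p = 0.00885). Without CpG-A replicate 1 it read -0.40, its call did not hold and the count was 1. At an unadjusted p under 0.05 there were 6 of the 40 genes, beside 4776 of all 19751 genes, which is a larger share. All 3 CpG-A arrays lay below all 3 CpG-B arrays for 10 of the 40 genes, where 13.5% of all genes did so, and above them for 0 of 40, where 14.7% did.

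The same contrast in the presence of LIF used other arrays. In CpG-A + LIF vs CpG-B + LIF, 5 of 40 were called, all lower with CpG-A + LIF, where 16.9% of all genes were called and 8% were called lower. The median was -0.17, beside 0.05 over all genes. Below 0 were 16 of 17 cap genes (median -0.21), 12 of 16 core genes (median -0.12) and 8251 of all 19751 genes, which was again not tested. Psme3 was at -0.01, -0.13 and -0.18 in CpG-A + LIF arrays against 0.73, 0.62 and 0.59 in CpG-B + LIF arrays, and read -0.75 ± 0.12 (limma adjusted p = 0.000188). Psmd6 was at 0.28, 0.43 and 0.31 against 0.88, 0.70 and 0.92, and read -0.49 ± 0.12 (limma adjusted p = 0.00598). Both genes therefore differed between the CpGs with and without LIF. Psmc1 was at 0.49, 0.50 and 0.58 in CpG-A + LIF arrays against 1.22, 1.12 and 0.92 in CpG-B + LIF arrays and read -0.57 ± 0.14 (limma adjusted p = 0.0078). Psma8 (-0.61 ± 0.19) and Psmb3 (-0.53 ± 0.15) were also called. All CpG-A + LIF arrays lay below all CpG-B + LIF arrays for 16 of the 40 genes and above them for 2, where 15.9% and 17.7% of all genes did so. The count of called genes was 3 without CpG-B + LIF replicate 1 and 3 without CpG-A + LIF replicate 3, and in both cases the calls of Psma8 and Psmb3 were the ones lost. The call of Psmb3 was also lost without CpG-B + LIF replicate 2 (readings between -0.51 and -0.42 without these arrays), and that of Psma8 without CpG-A + LIF replicate 1 or 2 or CpG-B + LIF replicate 3 (between -0.66 and -0.52). A further probe set of Psmb3 read -0.23 (limma adjusted p = 0.272) and was not called, whereas that of Psmc1 was called at -0.45.

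**Figure D4:**
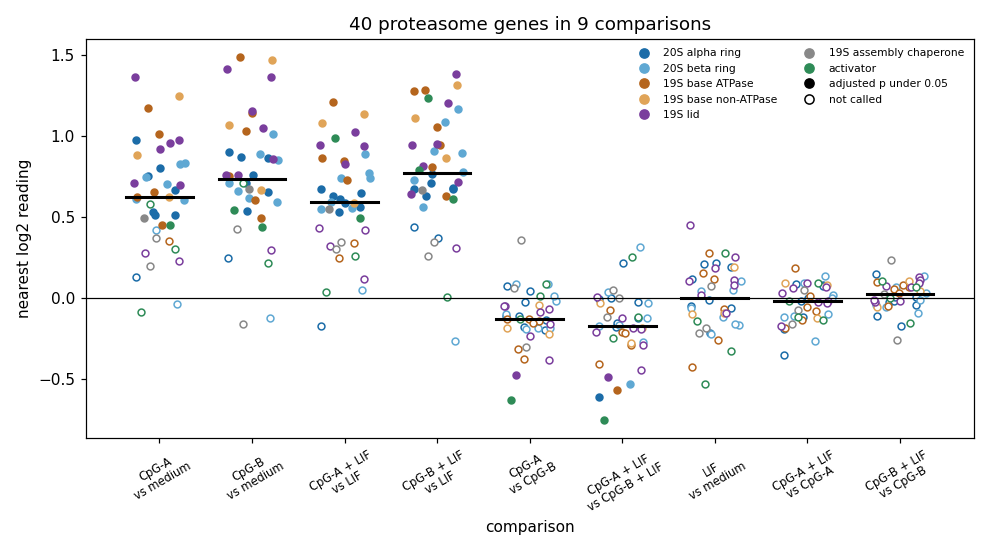
Nearest log2 readings of the 40 genes (points) in the 9 pairwise comparisons, with the median as a bar. The 4 comparisons of a CpG with its control have medians between 0.59 and 0.77, the 3 LIF comparisons centre on 0, and the 2 comparisons of CpG-A with CpG-B lie slightly below 0.

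LIF gave no called difference in any of the 40 genes. In LIF vs medium (n = 3 and 2) 0 genes were called by limma, where 0.81% of all genes were called. Before adjustment, 2 of the 40 were under 0.05, beside 2036 of all 19751 genes. The median reading was 0.00. Psmd11 had the largest increase, with LIF arrays at 0.47, 0.65 and 0.24 against medium arrays at -0.10 and 0.10, and a reading of 0.45 ± 0.14 (limma adjusted p = 0.194). The groups did not overlap. Psme2 had the largest decrease, with LIF arrays at -0.56, -0.76 and -0.27 against 0.09 and -0.09, and a reading of -0.53 ± 0.25 (limma adjusted p = 0.488). The 95% intervals of the 40 genes reached at most 1.06 in size. All 3 LIF arrays lay above medium for 7 genes and below it for 5, where 10.9% and 14.9% of all genes did so.

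Adding LIF to a CpG gave no called difference either. In CpG-A + LIF vs CpG-A (n = 3 each), 0 of 40 genes were called by limma, where 0.00506% of all genes were called. Before adjustment, 0 of the 40 were under 0.05, beside 1200 of all 19751 genes. Readings ran between -0.35 (Psma8) and 0.19 (Psmc6), with a median of -0.02, and the intervals reached at most 0.75 in size. In CpG-B + LIF vs CpG-B (n = 3 each) the counts were again 0 and 0, where 0.0608% of all genes were called and 1529 were under 0.05 before adjustment. Readings ran between -0.26 (Psmd5) and 0.23 (Psmd10), with a median of 0.03, and the intervals reached at most 0.60. The test of whether LIF acts differently with CpG than without it gave 0 called genes for CpG-A and 0 for CpG-B by limma, where 0.0506% and 0.137% of all genes were called. Before adjustment, 1 gene (Psmd11, at -0.42 ± 0.19) and 3 genes (Psmd11, Psmc4 and Psme4) were under 0.05. Of all 19751 genes, 1388 and 1949 were. Failing the test does not show that a gene stayed the same.

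Each CpG given with LIF was also compared with LIF alone. In CpG-A + LIF vs LIF (n = 3 each), 28 of 40 genes were called (26 higher, 2 not settled), where 17.4% of all genes were called (6.23% higher, 7.29% lower and 3.85% not settled). The median was 0.59, beside 0.01 over all genes. With the unsettled readings of the 40 genes turned to their other readings, it was 0.57. The core gave 14 of 16 called higher and the cap 11 of 17 called. Some calls were lost when single arrays of these groups were left out. They were those of Psma3 (readings between 0.45 and 0.58), Psmb3 (0.42 to 0.50), Psmd4 (0.49 to 0.55) and Psmd9 (0.42 to 0.45). Without LIF replicate 2, the count for the 8 lid genes rose from 4 to 7. Psmc6 read 1.21 ± 0.12 (or -2.11) and Psmd1 1.13 ± 0.11 (or -2.19). The largest readings with a settled direction were those of Psmd2 (1.08 ± 0.13, 2.11-fold), Psmd12 (1.02 ± 0.13), Psme2 (0.99 ± 0.23), Psmd11 (0.94 ± 0.13), Psmd3 (0.94 ± 0.18) and Psmb7 (0.89 ± 0.13). Every CpG-A + LIF array lay above every LIF array for 32 genes, where 14.6% of all genes did so, and below for 1, Psma8, where 14.8% did. On nearest readings, the 32 include the 2 genes whose direction was not settled.

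In CpG-B + LIF vs LIF (n = 3 each), 33 of 40 were called (25 higher, 8 not settled), where 25.4% of all genes were called (10.5% higher, 9.02% lower and 5.94% not settled). The median was 0.77, beside -0.04 over all genes. With the unsettled readings of the 40 genes turned to their other readings, it was 0.65. The core gave 13 of 16 called and the cap 16 of 17. The call of Psmd13 was lost without LIF replicate 1 or 3 (readings between 0.50 and 0.53). The direction was not settled for Psmd3 (1.38 ± 0.18), Psmd1 (1.32 ± 0.11), Psmc6 (1.28 ± 0.12), Psmc4 (1.28 ± 0.16), Psme2 (1.24 ± 0.23), Psmd12 (1.20 ± 0.13), Psmb7 (1.17 ± 0.13) and Psmd2 (1.11 ± 0.13), whose other readings lay between -2.21 and -1.94. The largest with a settled direction were Psmb3 (1.09 ± 0.15, 2.12-fold), Psmc2 (1.06 ± 0.14), Psmd14 (0.95 ± 0.11), Psmc5 (0.95 ± 0.13), Psmd11 (0.94 ± 0.13) and Psmb5 (0.90 ± 0.14). Psmb5 passed the test over LIF with CpG-A as well (0.74 ± 0.14, limma adjusted p = 0.00116). Every CpG-B + LIF array lay above every LIF array for 36 genes, where 18.2% of all genes did so, and below for 1, Psmb11, where 19.1% did. On nearest readings, the 36 include the 8 genes whose direction was not settled.

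Against LIF alone, Psme1 and Psme2 passed the test with both CpGs. Psme1 was at 0.14, 0.30 and 0.05 in CpG-A + LIF arrays and 0.27, 0.43 and 0.13 in CpG-B + LIF arrays, against -0.22, -0.59 and -0.17 in LIF arrays. It was called higher in both comparisons (0.49 ± 0.14 and 0.61 ± 0.14), although without LIF replicate 2 or CpG-A + LIF replicate 2 the CpG-A call did not hold (0.36 to 0.42). Whether LIF changed their response to a CpG is the interaction above, in which neither was called. Psme2 was at 0.38, 0.76 and 0.24 and at 0.67, 1.15 and 0.31, against -0.56, -0.76 and -0.27 in LIF arrays. On nearest readings, all 6 arrays with CpG lay above all LIF arrays for both genes, although the direction for Psme2 with CpG-B + LIF was not settled. Psme3 was not called with CpG-A + LIF (0.04 ± 0.12) and was called with CpG-B + LIF (0.79 ± 0.12), as without LIF. Psme4 was at 0.62, 0.50 and 0.51 and at 0.26, 0.31 and 0.29, against 0.23, 0.38 and 0.23 in LIF arrays, and was called in neither.

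Across the 4 comparisons of a CpG with its control, 23 of the 40 genes were called in all 4, and 13 of these were called higher in each. The matching shares of all genes were not computed. They cannot exceed those in CpG-A vs medium alone, where 16.7% of all genes were called and 4.91% were called higher. Among the 13, Psma2, Psma7, Psmb3, Psmb6, Psmc5 and Psmd4 lost at least 1 of these calls when a single array was left out. So did Psmc4 and Psmd3 among the others of the 23. The genes called in none of the 4 were Psma8, Psmb11, Psmd8 and Psmd10, and Psmb11, Psmd8 and Psmd10 were called in none of the 9 comparisons or 2 interactions. The pairs that share the medium or the LIF arrays are not independent of each other.

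Of the 42 other genes listed for the pathway, 31 were in the table. With CpG-A, 13 of 31 were called (10 higher, 3 lower), where 16.7% of all genes were called (4.91% higher, 7.15% lower), and the count was 8 without either medium replicate. With CpG-B, 17 of 31 were called (12 higher, 1 lower, 4 not settled), where 19.2% of all genes were called (6.94% higher, 7% lower). The ATPase Vcp, which extracts ubiquitin-tagged proteins, read 0.92 ± 0.13 and 1.09 ± 0.13 higher. Its cofactors Nploc4 (1.10 ± 0.13 and 0.99 ± 0.13) and Ufd1 (0.88 ± 0.12 and 0.73 ± 0.12) were also higher in both. Nfe2l1 read 1.05 ± 0.15 higher with CpG-A (limma adjusted p = 6.43e-05) and 1.27 ± 0.15 (or -2.05) with CpG-B. Ngly1, the enzyme that removes sugars from Nfe2l1 and is known to be needed for its activity, was lower in both, at -0.69 ± 0.15 and -0.59 ± 0.15. On the cap, the deubiquitinase Usp14 read 0.72 ± 0.14 higher with CpG-A and 1.22 ± 0.14 (or -2.11) with CpG-B, and the thioredoxin Txnl1 0.76 ± 0.15 and 1.20 ± 0.15 (or -2.12). Faf2, a Vcp cofactor, was higher in both, at 0.71 ± 0.19 and 0.61 ± 0.19. Other genes were called with 1 CpG only, and for these the contrast of the CpGs is given too. Zfand2a read 1.04 ± 0.29 with CpG-A (called higher) and 0.59 ± 0.29 with CpG-B (not called), Zfand5 0.55 ± 0.14 (called higher) and 0.40 ± 0.14 (not called), and Ubqln2 -0.49 ± 0.15 (called lower) and -0.16 ± 0.15 (not called). Ubqln1 read 0.34 ± 0.13 with CpG-A (not called) and 0.56 ± 0.13 with CpG-B (called higher). None of these 4 genes was called in CpG-A vs CpG-B, with limma adjusted p-values between 0.13 and 0.539, so a difference between the CpGs was not shown for them. Ubqln4 was called lower with CpG-A (-0.65 ± 0.19) and not called with CpG-B (0.03 ± 0.19). Uchl5 (-0.21 and 0.57), Ecpas (0.11 and 0.53), Rad23b (0.23 and 0.68), Faf1 (0.14 and 0.81) and Uba6 (0.14 and 0.66) were not called with CpG-A and were called higher with CpG-B. These 6 genes were also called in CpG-A vs CpG-B, with the readings given below.

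Genes around the core also differed between the CpGs. Psmg1 and Psmg2, which pair up to start the alpha ring, read -0.56 ± 0.21 and -0.21 ± 0.21 with CpG-A, neither of which was called, and 1.04 ± 0.21 (higher) and 1.33 ± 0.21 (or -1.99) with CpG-B. In CpG-A vs CpG-B, they read -1.61 ± 0.19 (or 1.72) and -1.54 ± 0.19 (or 1.78), both called with the direction not settled. In that contrast 11 of the 31 genes were called, where 13% of all genes were called and 6.14% were called lower. Of these, 8 were lower with CpG-A, 2 were not settled, and Nfe2l2, a relative of Nfe2l1, was higher (0.63 ± 0.13). Without CpG-B replicate 1 or 2 the count was 7. The 8 lower genes were Uchl5 (-0.78), Ubqln4 (-0.68), Faf1 (-0.67), Uba6 (-0.52), Usp14 (-0.50), Rad23b (-0.45), Txnl1 (-0.44) and Ecpas (-0.43). Of the 3 immunoproteasome subunits, Psmb9 was called higher with CpG-A (0.64 ± 0.14) and CpG-B (0.52 ± 0.14), while Psmb8 (0.03 ± 0.17 and 0.25 ± 0.17) and Psmb10 (0.23 ± 0.16 and 0.06 ± 0.16) were not called. LIF changed none of the 31 genes past the test. With LIF present, 11 of 31 were called in CpG-A + LIF vs LIF, 19 in CpG-B + LIF vs LIF and 11 in CpG-A + LIF vs CpG-B + LIF. Of all genes, 17.4%, 25.4% and 16.9% were. The last count was 7 without CpG-A + LIF replicate 1. In that contrast, 2 of the 7 assembly and inhibitor genes, a list with Psmg1 and Psmg2, had unsettled calls. Readings of the 7 ran from -0.63 to 1.655, so the unsettled nearest readings were positive.

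Several genes had more than 1 probe set, and the one with the most listed accessions was used. Psma3 had 3, which read 0.81, 0.92 and 0.65 in CpG-A vs medium and 0.76, 1.05 and 0.72 in CpG-B vs medium, all called. In CpG-B + LIF vs LIF they read 0.37, 1.08 and 0.57, and the first, which stood for the gene, was not called. The further probe sets of Psma5 and Psmb3 were called higher in all 4 CpG comparisons, as the main ones were. That of Psmd2 read 0.93 in CpG-A vs medium and 1.22 in CpG-B vs medium, the second over the limit. Psmc3ip, one of the name matches that is not a subunit, was not called in CpG-A vs medium (0.20 ± 0.16) and read 0.67 ± 0.16 higher in CpG-B vs medium. Psme3ip1 was called in neither.

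Markers of cell types were tested in the same comparisons, in which the share called over all genes was 16.7% for CpG-A vs medium and 19.2% for CpG-B vs medium. Of 9 pDC markers in the table, 4 were called in CpG-A vs medium (1 higher, 2 lower, 1 not settled) and 7 in CpG-B vs medium (1 higher, 3 lower, 3 not settled). Among them was the sort marker Siglech, at -0.58 ± 0.15 with CpG-A and 1.40 ± 0.15 (or -1.92) with CpG-B. In CpG-A vs medium the counts were 2 of 7 for the B lineage (1 lower, 1 not settled), 3 of 6 for monocytes and macrophages (all not settled), 1 of 6 for neutrophils (not settled), 0 of 5 for T and NK cells by limma (0 also before adjustment) and 1 of 6 for conventional dendritic cells (lower). In CpG-B vs medium they were 1 of 7, 2 of 6, 2 of 6 and 1 of 5 for the first 4 of these lists, all not settled, and 3 of 6 for conventional dendritic cells (1 lower, 2 not settled). With lists of 5 to 9 genes, a count of 1 or 2 lies near the share over all genes. Levels are unknown, so which of these markers were at background could not be told, and their part in the proteasome readings was not tested.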

How the data were processed

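Total RNA of 17 sorted pDC samples was measured on single-channel arrays, 1 array per sample. Per the submitters' processing notes the authors used RMA, a method for background correction, normalization and summary of probe values. The version of RMA is not given here, and neither is any other step. The deposited values are linear intensities written as digits without their decimal mark: of 419560 cells 90% have 10 digits, 9.04% have 9, and 1 kept its mark. Log2 values are therefore known only modulo 3.32, a limit that the planned test was built for.

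The probe annotation gave 1 gene symbol for 21354 of 24680 probe sets, several for 1275 and none for 2051. Probe sets with several symbols or none were left out. Where a gene had more than 1 probe set, the one listing most accessions stood for it, and all 19751 genes were kept. Group means were circular, each array deviated from its group mean by the shortest way, and differences were nearest readings. limma 3.58.1 (R 4.3.3) was fitted to all arrays at once with a coefficient for each group, leaving 11 residual degrees of freedom. Each ± in the report is the SE of that fit, with n as given for the groups. Interactions were differences between a pair of such readings, without further folding. The median SD within groups was 0.14 for the 40 genes and 0.19 for all genes. The number of arrays limits the precision. The procedure was tested on simulated data with known changes that all lay within the direction limit. Changes large enough to fold over or to leave the direction unsettled were not tried. Promoters and figures were handled with python 3.11.15, pandas 2.3.3 and matplotlib 3.10.9.

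The genes, lists, direction limit and naming rule were chosen with earlier results of these data known. Named with values were, in each comparison, the called genes with the 6 largest settled readings, every called gene over the limit, all activators, the genes of widest and narrowest range of group means in each class, genes called nowhere, and called pathway genes. Genes named beyond this (such as Psmb5, Psmb6 and Psmd7) were chosen for their role or place, after their values were seen. Psme2b shares a probe set with Psme2 and was not used, while Psme2 has a probe set of its own. The alternatives were a replicate block, leaving out each array, recentred arrays, the first listed probe set per gene, and fits of only the groups compared. Others were robust variances, a filter on the spread of arrays, another way of unfolding and other direction limits. A fit of all probe sets with 1 symbol was added after seeing the data. Only 5 of the 42 genes had more than 1 probe set. For Psma3, Psmb3, Psmc1 and Psmd2 these tied in listed accessions, so the first listed was the one already used. That setting therefore did not try another probe set for them.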

Additional observations from a re-analysis of the deposited data

How the results depend on the processing

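All 130 called readings of the 40 genes were recomputed with each of the 17 arrays left out and under 8 other settings, and 96 lost their call under none of the settings run on them. The first listed probe set, 1 of these settings, could not test the choice of probe set for most of these genes. The setting restricted to genes whose arrays spread over less than 1.66 covered 120 of the 130. The exceptions with a change of direction or a large change in the number called all came from leaving out an array. The number read as higher also depended on the direction limit, as given below. Over the arrays left out, the number of genes called ranged over 18 to 29 in CpG-A vs medium, 24 to 34 in CpG-B vs medium, 1 to 2 in CpG-A vs CpG-B, 23 to 30 in CpG-A + LIF vs LIF, 32 to 34 in CpG-B + LIF vs LIF and 3 to 6 in CpG-A + LIF vs CpG-B + LIF. The lowest counts came without medium replicate 3 (18), without CpG-A replicate 1 (1), and without CpG-B + LIF replicate 1 or CpG-A + LIF replicate 3 (3 each). By class, leaving out medium replicate 3 moved the count in CpG-A vs medium to 4 for the alpha ring and 8 for the cap. With unsettled readings turned, an alternative chosen after seeing the data, the cap median fell below the core median in both CpG comparisons with medium. Psmd3 in CpG-B vs medium ranged over -1.58 to 1.43, and the negative reading came without medium replicate 3. Fits with fewer arrays have fewer degrees of freedom, and any other cause was not tested. In the fit with the replicate number as a block, 28 genes passed the test in CpG-A vs medium, since Psmc5 was lost, and no other call changed. The numbers were not taken as pairs, because same-numbered arrays deviated together in only 6 of 40 pairs above a correlation of 0.1 (median 0.02). However, most arrays (11 of 17) correlated best with their own number, which goes the other way. Whether the number marks a shared deviation was not tested beyond the block fit. Fits of only the groups compared lost 9 calls. With a stricter direction limit, the period divided by 4, 19 genes read higher in CpG-A vs medium and 17 in CpG-B vs medium, and with a limit of 1.66 (no reading unsettled) 29 and 33. The counts of 0 for LIF and the interactions held under every setting run. Signal over background is unknown here, so dim genes could not be set apart.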
